A study of Mus musculus with 18 samples.

Results

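Cytochrome P450 genes were followed in the colon of mice that had been through dextran sulfate sodium (DSS) colitis. The members were all genes of the deposited table whose mouse symbol, found through the NCBI gene ID, is Cyp followed by a number, a letter and a number. That gave 70 of the 18349 genes in the table, in 34 subfamilies. Of these, 34 members in 16 subfamilies reached 1 FPKM (a level scaled to transcript length and library size) in at least 3 libraries and were tested, and the other 36 are given as levels. Cyp51 and pseudogenes were left out by this rule, and 24 further RefSeq symbols of the same form, such as Cyp1a2, Cyp2c29, Cyp4a14 and Cyp7a1, were not analysed here.

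The 18 libraries held bulk RNA from whole colons of male C57BL/6 mice, sequenced on the DNBSEQ platform. All animals carry the label of a wild-type host genotype, so that WT, KO and COM name the bacteria and not the mice. DSS mice (n = 3) drank 2.5% DSS for 7 days, which injures the colon epithelium, and then received phosphate-buffered saline by gavage for 5 weeks. WT, KO and COM mice (n = 4 each) had the same DSS course and then 5 weeks of gavage with Lactobacillus plantarum ZJ316, ZJ316-KO or ZJ316-COM. What was changed in the ZJ316-KO and ZJ316-COM bacteria is not stated in the labels. Control mice (n = 3) drank water without DSS. The labels do not tie a library to a single animal, so the p-values measure the spread between these libraries.

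Several libraries stood apart in markers of place or cell type, and the counts of called members are given with and without them. Control 3 held 0.76 FPKM of Hoxb13, a homeobox gene of the hindmost gut, and KO 2 held 79.3 FPKM, against 173 to 364 FPKM in the other 16 libraries. COM 2 held 655 FPKM of albumin (Alb) and DSS 1 held 51.7 FPKM, against 1 FPKM or less in the other 16 libraries. The mean log2 level of 17 pancreatic acinar genes was 10.6 in DSS 1, 8.11 in DSS 3 and 9.03 in KO 3, against at most 1.04 elsewhere. The mean log2 level of 16 squamous epithelial genes was between 1.61 and 2.82 in DSS 2, WT 2, WT 4, KO 3 and COM 3, against at most 0.76 elsewhere. All 13 colonocyte markers were in the table, and the mean log2 level of this list lay between 7.58 and 8.92 in every library.

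Cytochromes P450 are heme enzymes of the endoplasmic reticulum or the mitochondria that put one atom of oxygen from O2 into a lipid, steroid, vitamin or drug. Microsomal members take their electrons from P450 oxidoreductase (Por) and cytochrome b5, and mitochondrial members from the adrenodoxin pair Fdxr and Fdx1. In the gut epithelium, members of the Cyp2 and Cyp3 families oxidize drugs, food compounds and fatty acids, Cyp4 members oxidize the tail of fatty acids and leukotrienes, and single members handle sterols, bile acids, retinoic acid and vitamin D. Xenobiotic sensors such as the pregnane X receptor (Nr1i2) and the aryl hydrocarbon receptor (Ahr), and the epithelial factor HNF4, control many of these genes.

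A small number of members carried most of the signal. FPKM is a level per length, so that levels can be set side by side between genes. The mean over the 18 libraries was at least 20 FPKM for 13 members, at least 10 FPKM for 20 and at least 1 FPKM for 33. The 70 members summed to 835, 795 and 866 FPKM in DSS libraries, to 831, 728, 820 and 897 FPKM in WT libraries, to 984, 995, 1113 and 1094 FPKM in KO libraries, to 1644, 1775, 1083 and 1041 FPKM in COM libraries, and to 1062, 1441 and 4240 FPKM in Control libraries. All 7 DSS and WT libraries thus lay below all 11 others. The member sum was 0.153 to 0.164% of the library total in DSS, 0.140 to 0.170% in WT, 0.187 to 0.211% in KO, 0.201 to 0.340% in COM and 0.197 to 0.808% in Control.

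Much of this spread came from a single gene. Cyp2c55 made up 23.4 to 29.1% of the member sum in DSS libraries, 21.4 to 26.2% in WT, 34.3 to 41.4% in KO, 32.0 to 49.9% in COM and 31.2, 37.3 and 74.3% in Control 1, 2 and 3. Without Cyp2c55 the members summed to 605 to 614 FPKM in DSS, 572 to 693 FPKM in WT, 583 to 702 FPKM in KO, 680 to 892 FPKM in COM and 731 to 1090 FPKM in Control. The DSS and Control ranges did not overlap in this sum either.

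**Figure D1:**
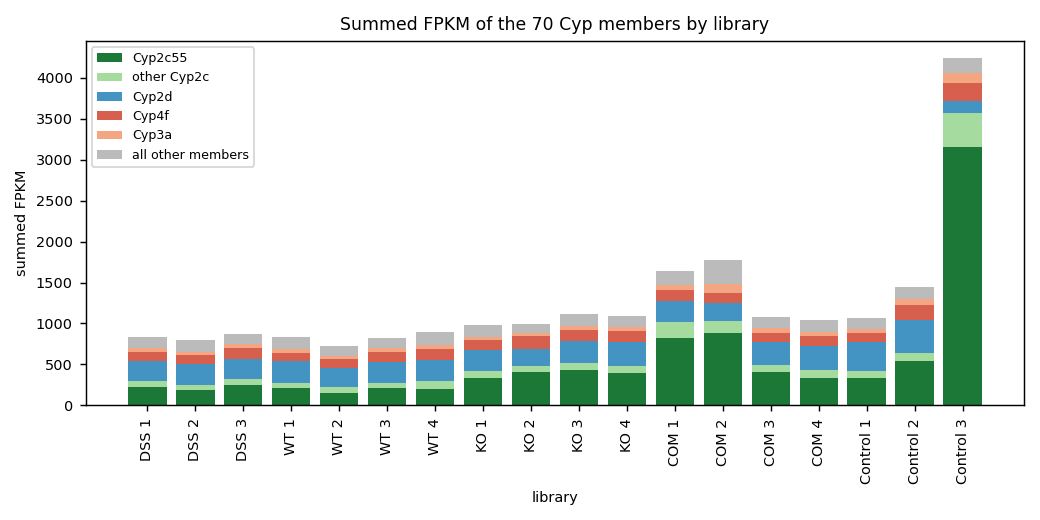
Summed FPKM of the 70 members in each of the 18 libraries, one stacked bar per library, with Cyp2c55, the other Cyp2c members, Cyp2d, Cyp4f, Cyp3a and all other members as segments. The Control 3 bar reaches 4240 FPKM, of which 74.3% is Cyp2c55, while the 7 DSS and WT bars stay between 728 and 897 FPKM.

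By subfamily, the Cyp2c sum averaged 293 ± 36.7 FPKM in DSS, 265 ± 31.5 FPKM in WT, 473 ± 39.5 FPKM in KO, 742 ± 327 FPKM in COM and 1543 ± 1757 FPKM in Control (SD, n = 3, 4, 4, 4 and 3). The Cyp2d sum averaged 248 ± 7.16, 258 ± 13.1, 260.1 ± 37.4 and 263 ± 36.5 FPKM in DSS, WT, KO and COM, against 301 ± 137 FPKM in Control. The Cyp4f sum averaged 115 ± 16.05, 114 ± 12.0, 135 ± 15.8 and 123 ± 8.80 FPKM in the same 4 groups, against 169 ± 52.7 FPKM in Control. The Cyp3a sum averaged 44.4 ± 2.74, 46.3 ± 8.09, 44.1 ± 5.10 and 68.5 ± 23.3 FPKM, against 85.4 ± 37.2 FPKM in Control. In each of these 4 subfamilies the Control group had the widest spread.

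The Cyp2c genes lie in a cluster on chromosome 19, and their proximal promoters are shown because Cyp2c65 was high and Cyp2c68 low in Control 3, KO 2 and COM 2, as described below. The sequences are the 130 bases before the outermost annotated gene start, from RefSeq (GRCm38.p6), printed 5′ to 3′ on the gene's own strand. Capitals mark CAAAGTCCA, a site bound by HNF4. The coordinates are chr19:39006810-39006939 (plus strand) for Cyp2c55, chr19:39060876-39061005 (plus) for Cyp2c65, chr19:39649080-39649209 (minus) for Cyp2c67, chr19:39741102-39741231 (minus) for Cyp2c68 and chr19:39886770-39886899 (minus) for Cyp2c69.
Cyp2c55: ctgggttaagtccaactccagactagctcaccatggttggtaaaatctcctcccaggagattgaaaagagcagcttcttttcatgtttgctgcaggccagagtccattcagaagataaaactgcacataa
Cyp2c65: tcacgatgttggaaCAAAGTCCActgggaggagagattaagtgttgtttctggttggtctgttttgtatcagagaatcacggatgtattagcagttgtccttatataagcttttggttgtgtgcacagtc
Cyp2c67: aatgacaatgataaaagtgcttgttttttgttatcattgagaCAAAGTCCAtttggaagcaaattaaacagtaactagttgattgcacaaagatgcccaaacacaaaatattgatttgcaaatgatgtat
Cyp2c68: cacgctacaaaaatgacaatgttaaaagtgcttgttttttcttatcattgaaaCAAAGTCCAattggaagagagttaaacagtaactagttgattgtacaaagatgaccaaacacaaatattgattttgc
Cyp2c69: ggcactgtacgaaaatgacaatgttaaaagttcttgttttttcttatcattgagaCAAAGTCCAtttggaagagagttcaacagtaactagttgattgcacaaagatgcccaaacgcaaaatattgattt
The site starts 116 bases before the start of Cyp2c65, 88 before Cyp2c67, 77 before Cyp2c68 and 75 before Cyp2c69, and the letters are not in the Cyp2c55 window. The promoters of Cyp2c67, Cyp2c68 and Cyp2c69 are near copies of each other around the site. In 250-base windows on both strands, CAAAGTCCA stood in 9 of the 55 members with a RefSeq promoter (16.4%) and in 0.38% of all 27025 promoters. The 9 were Cyp2c40, Cyp2c65, Cyp2c67, Cyp2c68, Cyp2c69, Cyp2c70, Cyp3a11, Cyp3a16 and Cyp8b1, several of them close relatives that share sequence. The other motifs searched stood in 38.2% of members and 12.97% of all promoters (TATAAA), in 16.4% and 13.84% (AGGTCA, the half-site of nuclear receptors), and in 25.5% and 28.21% (GCGTG, the core of the Ahr site). A match is a description of the letters, and binding was not measured.

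Cyp2c55 (chromosome 19, 39006940 to 39042690), an arachidonic acid hydroxylase of the mouse colon, was the most abundant member. It stood at 229.9, 186 and 252 FPKM in DSS libraries, at 207, 156, 215 and 204 FPKM in WT, at 338, 412, 427 and 393 FPKM in KO, at 820.3, 883, 404 and 334 FPKM in COM, and at 331, 538 and 3149.9 FPKM in Control. All DSS and WT libraries were below all Control libraries, KO and COM libraries overlapped with Control 1 and 2, and Control 3 was far above every other library. Cyp2c55 fell by 1.90 ± 0.57 in DSS against Control, on the log2 scale of FPKM + 1 (limma, standard error, adjusted p = 0.0344), and by 2.08 ± 0.54 in WT against Control (adjusted p = 0.0131). In bulk tissue, fewer cells of a type and less RNA per cell cannot be told apart. Leaving out Control 3 and KO 2 gave -0.93 ± 0.35 in DSS (adjusted p = 0.0938) and -1.12 ± 0.33 in WT (adjusted p = 0.035), so that the DSS call ended and the WT call held. The DSS call also ended without DSS 1 (-1.93), DSS 2 (-1.77) or DSS 3 (-1.99). The 13 colonocyte markers, none of them at 0 in any library, summed to 5266 to 6383 FPKM in DSS, 5510.0 to 6772 FPKM in WT, 6943 to 10050 FPKM in KO, 6843 to 11134 FPKM in COM, and 9344, 10393 and 24723 FPKM in Control. Much of the Control 3 sum was Car1, at 15636 FPKM against 2055 and 1163 FPKM in Control 1 and 2. Car4 and Slc26a3 were lower in Control 3 (576 against 1869 and 1833 FPKM, and 137 against 615 and 648 FPKM). Cdhr5 was higher there (658 against 487 and 504 FPKM). The part of these markers in the result was not tested.

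KO and COM libraries held more Cyp2c55 than DSS and WT libraries. All 8 of them lay above all 7 DSS and WT libraries. Of all genes, 19.3% did not overlap in KO against DSS, 15.7% in COM against DSS, 17.2% in KO against WT and 10.4% in COM against WT. The colonocyte marker sums split in the same way, at 6772 FPKM or less in DSS and WT and 6843 FPKM or more in KO and COM. Their part in this difference was not tested. The differences of means were +0.82 ± 0.54 for KO against DSS (adjusted p = 0.472), +1.34 ± 0.54 for COM against DSS (adjusted p = 0.378), +1.01 ± 0.50 for KO against WT (adjusted p = 0.272) and +1.52 ± 0.50 for COM against WT (limma, adjusted p = 0.327), and none of them passed the test. Leaving out Control 3 and KO 2, which lowers the fitted spread of this gene, turned COM against WT into +1.52 ± 0.27, which passed (adjusted p = 0.0331). A fit of KO and WT alone also passed, at +1.01 ± 0.11 (adjusted p = 0.0191), and so did Cyp2c65 at +2.12 ± 0.48 and Cyp4f40 at -0.27 ± 0.06 (adjusted p = 0.0484 and 0.0449). The 2 settings did not pass alike. Without Control 3 and KO 2, 0 members were called in KO against WT, beside 141 of all genes. With COM and WT fitted alone, 0 members and 0 of all genes were called. Within COM, the libraries fell into a higher pair, COM 1 and COM 2, and a lower pair, COM 3 and COM 4.

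Cyp2c65 lies beside Cyp2c55 and followed it in the libraries that were highest, at a lower level. It stood at 9.60, 3.40 and 6.60 FPKM in DSS libraries, at 2.91, 2.9, 3.93 and 3.0 FPKM in WT, at 6.23, 50.2, 14.99 and 17.4 FPKM in KO, at 120.0, 98.1, 4.56 and 3.77 FPKM in COM and at 4.20, 17.2 and 406 FPKM in Control. Control 3, COM 1, COM 2 and KO 2 thus held 50.2 FPKM or more, and no other library exceeded 17.4 FPKM. Its coding sequence is 96.33% identical to that of Cyp2c66, a member too low to be tested, which reached 2.72 FPKM in Control 3 and 2.45 FPKM in COM 1 and was chosen after its values were seen, and reads of this pair may have been split or shared in counting. Cyp2c65 was called in none of the comparisons, and WT against Control, whose groups do not overlap, stood at -3.02 ± 1.31 (limma, adjusted p = 0.105).

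Cyp2c68 was low in 3 of these 4 libraries, COM 1 being the exception. It stood at 55.2, 62.0 and 62.7 FPKM in DSS libraries, at 62.2, 59.7, 49.1 and 83.2 FPKM in WT, at 70.9, 13.8, 69.1 and 60.6 FPKM in KO, at 67.7, 35.5, 73.8 and 91.1 FPKM in COM and at 79.3, 83.2 and 5.96 FPKM in Control. The 3 lowest values were those of Control 3, KO 2 and COM 2. Cyp2c68 was not called, and its coding sequence is 97.15% identical to that of Cyp2c67, so that its level is uncertain in the same way as that of Cyp2c65. Cyp2c69 stayed between 0.67 and 3.92 FPKM.

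Cyp3a13 (chromosome 5, 137892933 to 137925610), a drug and steroid oxidase, accounted for nearly all of the Cyp3a signal outside COM 1, COM 2 and Control 3. It stood at 43.0, 41.2 and 46.0 FPKM in DSS libraries, at 42.6, 40.5, 43.9 and 58.3 FPKM in WT, at 38.3, 41.5, 49.4 and 47.3 FPKM in KO, at 59.98, 56.3, 50.4 and 56.4 FPKM in COM and at 51.7, 79.1 and 105.5 FPKM in Control. Every DSS and KO library was below every Control library, 1 WT library and 3 COM libraries overlapped with Control 1, and the 3 Control libraries differed by more than any other group. Cyp3a13 fell by 0.79 ± 0.19 in DSS (limma, adjusted p = 0.0120), by 0.71 ± 0.18 in WT (adjusted p = 0.0111) and by 0.77 ± 0.18 in KO (adjusted p = 0.0239), each against Control. COM against Control stood at -0.44 ± 0.18 and did not pass (adjusted p = 0.142). The DSS value without Control 3 and KO 2 was -0.55 ± 0.17 and still passed (adjusted p = 0.0458), while WT (-0.47 ± 0.16, adjusted p = 0.0589) and KO (-0.51 ± 0.17, adjusted p = 0.104) did not. With single libraries left out, the KO call ended without Control 2 (-0.74), Control 3 (-0.53) or KO 1 (-0.71), the WT call ended without Control 3 (-0.47), and the DSS call held each time. The nearest relative, Cyp3a25, is 76.87% identical in coding sequence.

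Among the Cyp2d genes, which oxidize many drugs in mouse and human, Cyp2d22 (chromosome 15, 82370527 to 82380260) behaved unlike the rest. It stood at 10.2, 11.1 and 9.09 FPKM in DSS libraries, at 10.7, 8.85, 11.9 and 12.5 FPKM in WT, at 12.8, 9.35, 14.9 and 13.3 FPKM in KO, at 14.2, 13.8, 14.97 and 11.4 FPKM in COM and at 17.8, 17.4 and 17.6 FPKM in Control. The Control libraries differed by less than 1 FPKM, Control 3 included, and all 15 libraries from DSS-treated mice lay below them. Cyp2d22 fell by 0.74 ± 0.14 in DSS (limma, adjusted p = 0.00442) and by 0.64 ± 0.13 in WT (adjusted p = 0.00400). The DSS and WT values were the same without Control 3 and KO 2 (-0.74 and -0.64, adjusted p = 0.0043 and 0.0046), and both calls held with any 1 library left out. The values of -0.47 ± 0.13 in KO (adjusted p = 0.0572) and -0.35 ± 0.13 in COM (adjusted p = 0.117) did not pass.

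Cyp2d34, Cyp2d12 and Cyp2d10 were lowest in Control 3, and their comparison with Control changed when Control 3 and KO 2 were left out. Cyp2d34, the highest of the subfamily, stood at 131, 138 and 124 FPKM in DSS libraries, at 147, 134, 138 and 133 FPKM in WT, at 122, 128, 133 and 149.7 FPKM in KO, at 123, 89.1, 144 and 144 FPKM in COM and at 172, 205 and 57.4 FPKM in Control. Control 1 and 2 were above, and Control 3 below, all other libraries. Cyp2d12 stood at 31.1, 36.6 and 34.6 FPKM in DSS libraries, at 37.0, 27.6, 32.1 and 38.8 FPKM in WT, at 40.7, 8.84, 38.7 and 45.7 FPKM in KO, at 39.6, 18.4, 55.8 and 50.3 FPKM in COM and at 69.3, 72.3 and 3.05 FPKM in Control. The same order held here, and KO 2 and COM 2 were the next lowest libraries. Cyp2d10 stood at 40.5, 43.0 and 41.1 FPKM in DSS libraries, at 36.5 to 44.9 FPKM in WT, at 25.9 to 51.1 FPKM in KO, at 34.7 to 46.6 FPKM in COM and at 59.8, 60.4 and 15.9 FPKM in Control.

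None of Cyp2d34, Cyp2d12 and Cyp2d10 was called in DSS against Control over all 18 libraries, where they stood at 0.04 ± 0.32, 0.35 ± 0.84 and 0.09 ± 0.36. When Control 3 and KO 2 were left out they stood at -0.52 ± 0.16 (adjusted p = 0.0476), -1.04 ± 0.32 (adjusted p = 0.0444) and -0.52 ± 0.12 (limma, adjusted p = 0.0106), and all 3 passed. Cyp2d40, chosen after its values were seen, did the same at -0.96 ± 0.18 (adjusted p = 0.0059). Cyp2d26, also chosen after its values were seen, ran the other way, with 42.0 FPKM in Control 3, 25.8 in COM 2, 16.8 in COM 1 and 13.3 in KO 2, against 5.15 to 9.11 FPKM in the other 14 libraries. The coding sequences of Cyp2d34, Cyp2d10 and Cyp2d12 are 91.53, 94.71 and 92.13% identical to their nearest relatives, so that shared reads leave their separate levels uncertain. Cyp2d22 is 79.17% identical to its nearest relative.

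The Cyp4f genes hydroxylate fatty acids and leukotrienes, and their members moved in both directions. Cyp4f16 (chromosome 17, 32536545 to 32551798) stood at 21.2, 21.1 and 26.4 FPKM in DSS libraries, at 19.2, 19.0, 23.0 and 25.4 FPKM in WT, at 27.1, 25.3, 28.9 and 24.6 FPKM in KO, at 23.8, 18.2, 24.1 and 26.2 FPKM in COM and at 29.1, 47.0 and 33.7 FPKM in Control. All 15 libraries from DSS-treated mice lay below all 3 Control libraries, KO 3 by less than 1 FPKM. Cyp4f16 fell by 0.63 ± 0.16 in DSS (limma, adjusted p = 0.0170), by 0.71 ± 0.15 in WT (adjusted p = 0.00469) and by 0.63 ± 0.15 in COM (adjusted p = 0.0229), and stood at -0.43 ± 0.15 in KO (adjusted p = 0.119). The values in DSS, WT and COM without Control 3 and KO 2 were -0.68, -0.76 and -0.67, and all 3 passed. The COM call ended without COM 2 and DSS 1 (-0.52 ± 0.15, adjusted p = 0.0714). With single libraries left out, it ended without Control 2 (-0.44), COM 2 (-0.52) or COM 3 (-0.65), and the DSS call without Control 2 (-0.44), DSS 1 (-0.58) or DSS 2 (-0.58).

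Cyp4f13 averaged 21.05 ± 2.27 FPKM in DSS, 20.5 ± 3.02 in WT, 24.0 ± 1.98 in KO and 25.4 ± 1.58 in COM, against 31.8 ± 8.15 FPKM in Control (SD, n = 3, 4, 4, 4 and 3). It fell by 0.55 ± 0.15 in DSS (limma, adjusted p = 0.0224) and by 0.59 ± 0.14 in WT (adjusted p = 0.00874), and no DSS or WT library reached the lowest Control library. Leaving out Control 3 and KO 2 changed the DSS value to -0.37 ± 0.13, which did not pass (adjusted p = 0.0845), and the WT value was -0.41 ± 0.13 (adjusted p = 0.0411). The DSS call also ended without DSS 1 (-0.48) or DSS 2 (-0.55). Cyp4f17 was a low member, at 1.44 FPKM or less in WT libraries and 1.70 to 2.25 FPKM in Control libraries, and fell by 0.29 ± 0.09 in WT against Control (adjusted p = 0.0320), a call that ended without Control 1 (-0.21), WT 1 (-0.29), WT 2 (-0.28) or WT 3 (-0.29). On the log2(FPKM + 1) scale the change of such a low gene is understated.

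Cyp4f18 (chromosome 8, 71988482 to 72009668), which inactivates leukotriene B4 in mouse neutrophils, was the Cyp4f member that rose. It stood at 5.70, 6.90 and 6.44 FPKM in DSS libraries, at 3.67, 4.29, 5.72 and 7.11 FPKM in WT, at 3.93, 2.49, 4.40 and 3.71 FPKM in KO, at 3.07, 4.07, 5.13 and 3.82 FPKM in COM and at 3.58, 3.40 and 0.61 FPKM in Control. Every DSS and WT library was above every Control library, and Control 3 was the lowest of all. Cyp4f18 rose by 1.20 ± 0.32 in DSS (limma, adjusted p = 0.0182) and by 0.93 ± 0.30 in WT (adjusted p = 0.0344). Without Control 3 and KO 2 it stood at 0.71 ± 0.20 in DSS and passed (adjusted p = 0.0302), and at 0.43 ± 0.19 in WT and did not (adjusted p = 0.13). Single libraries ended the DSS call when Control 3 (0.71), DSS 2 (1.15) or DSS 3 (1.19) was left out, and the WT call when Control 3 (0.43), WT 2 (0.99), WT 3 (0.87) or WT 4 (0.78) was. The 10 macrophage markers, all of them in the table and above 0 in every library, summed to 222 to 314 FPKM in DSS, 234 to 293 FPKM in WT, 114 to 219 FPKM in KO, 161 to 229 FPKM in COM and 144, 122 and 48.2 FPKM in Control, and their part in the result was not tested.

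Cyp4f40 and Cyp4f14 were abundant and were not called. Cyp4f40 stood at 35.1, 32.7 and 40.4 FPKM in DSS libraries, at 40.3 to 41.8 FPKM in WT, at 31.6 to 37.2 FPKM in KO, at 37.4 to 43.8 FPKM in COM and at 29.5, 26.4 and 48.8 FPKM in Control. Control 1 and 2 were the 2 lowest and Control 3 the highest of all 18 libraries. The DSS value without Control 3 and KO 2 was 0.35 ± 0.09 (limma, adjusted p = 0.0238), and over all libraries it was 0.09 ± 0.16. Cyp4f14, a leukotriene B4 hydroxylase in the mouse, stood at 28.6, 16.2 and 33.8 FPKM in DSS libraries, at 14.1 to 31.3 FPKM in WT, at 25.1 to 71.3 FPKM in KO, at 18.5 to 40.8 FPKM in COM and at 23.0, 68.4 and 90.9 FPKM in Control. Its DSS value against Control was -1.04 ± 0.48 (adjusted p = 0.145).

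**Figure D2:**
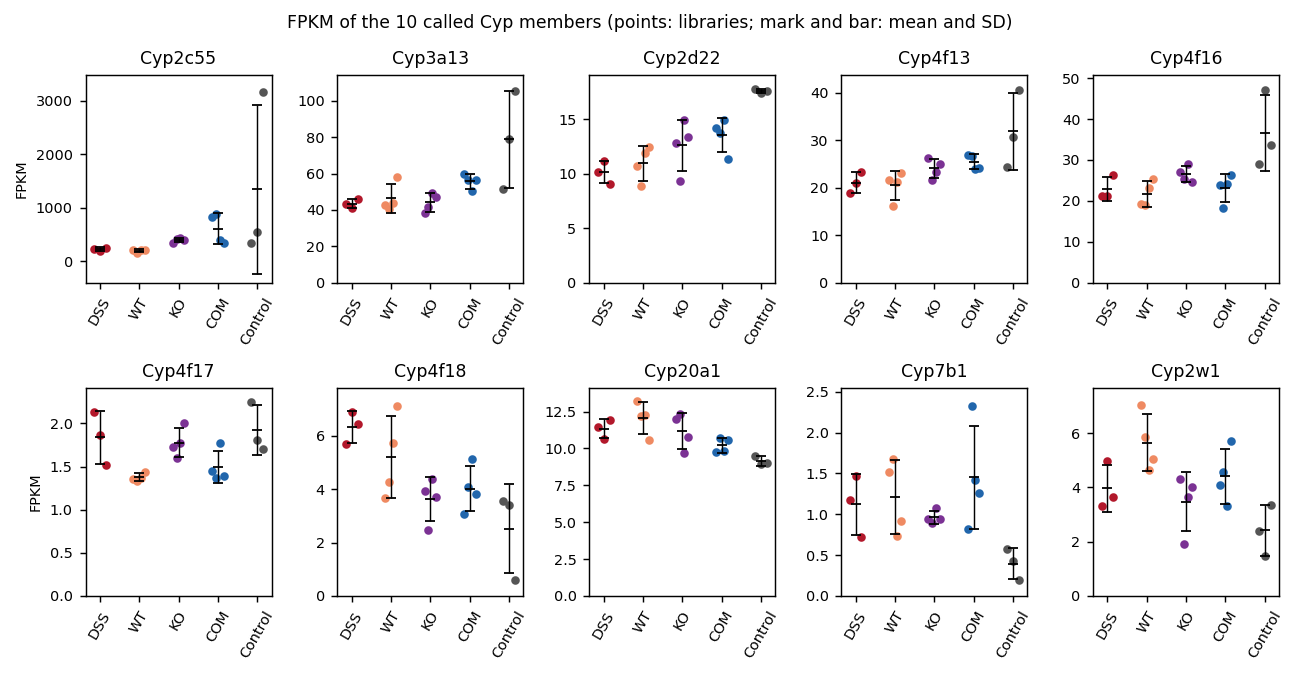
FPKM of the 10 members called in at least 1 comparison, one panel per gene, with libraries as points and the mean and SD of each group as mark and bar, in the order DSS, WT, KO, COM, Control. Cyp2d22 has the tightest Control group, at 17.4 to 17.8 FPKM, and Cyp2c55 the widest, at 331 to 3149.9 FPKM.

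Outside these subfamilies 3 members rose. Cyp20a1, an orphan P450 with no settled substrate, stood at 11.4, 10.6 and 11.9 FPKM in DSS libraries, at 13.2, 12.2, 12.2 and 10.6 FPKM in WT, at 12.0, 12.3, 9.70 and 10.8 FPKM in KO, at 9.73, 10.7, 9.84 and 10.5 FPKM in COM and at 9.51, 8.96 and 8.99 FPKM in Control. All 15 libraries from DSS-treated mice were above all Control libraries, by little. Cyp20a1 rose by 0.28 ± 0.09 in DSS (limma, adjusted p = 0.0377) and by 0.36 ± 0.08 in WT (adjusted p = 0.00632). The DSS call ended with any of 5 single libraries left out (Control 2, Control 3 or any DSS library), where it stood between 0.25 and 0.32, and the WT call held with any 1 left out.

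Cyp7b1, an oxysterol and steroid hydroxylase, stood at 1.17, 1.47 and 0.72 FPKM in DSS libraries, at 1.52, 1.68, 0.74 and 0.92 FPKM in WT, at 0.94, 0.89, 1.08 and 0.94 FPKM in KO, at 0.82, 2.32, 1.42 and 1.26 FPKM in COM and at 0.57, 0.43 and 0.19 FPKM in Control. No library from DSS-treated mice was as low as the Control libraries. Cyp7b1 rose by 0.65 ± 0.19 in WT (limma, adjusted p = 0.0247) and by 0.79 ± 0.19 in COM (adjusted p = 0.0229), each against Control. The DSS value was 0.60 ± 0.21 (adjusted p = 0.0587) and the KO value 0.50 ± 0.19 (adjusted p = 0.148). Neither call held without Control 3 and KO 2, at 0.54 ± 0.22 in WT (adjusted p = 0.109) and 0.68 ± 0.22 in COM (adjusted p = 0.0733). The COM call also ended without COM 2 and DSS 1 (0.63 ± 0.18, adjusted p = 0.0713). With single libraries left out, it ended without Control 2 (0.81), Control 3 (0.68), COM 2 (0.63) or COM 3 (0.78), and the WT call without Control 3 (0.54), WT 1 (0.58) or WT 2 (0.55).

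Cyp2w1, known in human from fetal colon and colon tumours, stood at 3.32, 4.96 and 3.63 FPKM in DSS libraries, at 7.03, 5.85, 4.64 and 5.05 FPKM in WT, at 4.33, 1.90, 3.64 and 4.02 FPKM in KO, at 4.08, 4.57, 3.30 and 5.71 FPKM in COM and at 2.41, 1.47 and 3.36 FPKM in Control. All WT libraries were above all Control libraries, and the other groups overlapped with Control. Cyp2w1 rose by 0.99 ± 0.23 in WT against Control (limma, adjusted p = 0.00687). Without Control 3 and KO 2 all 4 groups passed against Control, at 0.76 ± 0.20 in DSS, 1.18 ± 0.19 in WT, 0.78 ± 0.20 in KO and 0.88 ± 0.19 in COM (adjusted p = 0.0231, 0.0017, 0.0399 and 0.0136).

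Of the 34 tested members, 7 were called in DSS against Control, 2 higher and 5 lower. Over all 13263 genes tested 16.9% were called, 11.6% higher and 5.31% lower. In WT against Control 10 members were called, 4 higher and 6 lower, against 23.1% of all genes, 14.7% higher and 8.35% lower. In KO against Control 1 member was called, and it was lower, against 5.14% of all genes, 3.69% higher and 1.46% lower. In COM against Control 1 member was called higher and 1 lower, against 7.6% of all genes, 5.26% higher and 2.34% lower. The groups did not overlap for 9 members in DSS against Control, beside 30% of all genes, for 10 in WT (27.6%), for 5 in KO (13.1%) and for 6 in COM (16.7%). The share of members called in either direction, 20.6% in DSS, 29.4% in WT, 2.94% in KO and 5.88% in COM, was near that of all genes. Lower calls took 14.7% of members in DSS and 17.6% in WT. The median log2 fold change of the members was 0.0016 in DSS, 0.11 in WT, -0.03 in KO and 0.09 in COM, beside 0.05, 0.05, 0.03 and 0.03 over all genes. The 4 comparisons share the 3 Control libraries and are not independent.

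The counts changed with the libraries. Without Control 3 and KO 2 there were 11 members called in DSS against Control, 3 higher and 8 lower, of which 4 were called over all 18 libraries as well (Cyp2d22, Cyp3a13, Cyp4f16 and Cyp4f18). In the same setting 12 were called in WT (7 shared), 2 in KO (0 shared) and 7 in COM (1 shared). Of all 13263 genes tested, 1824, 2222, 627 and 1077 were called there in DSS, WT, KO and COM. Over all 18 libraries these counts were 2243, 3058, 682 and 1008. In DSS more members but fewer of all genes were thus called than over all 18 libraries. Without COM 2 and DSS 1 there were 4, 9, 1 and 0 members called in DSS, WT, KO and COM against Control, beside 1380, 2784, 520 and 499 of all genes. Without the acinar libraries DSS 1, DSS 3 and KO 3 no member was called in DSS against Control, where a single DSS library was then left and was assumed to vary like the other groups.

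**Figure D3:**
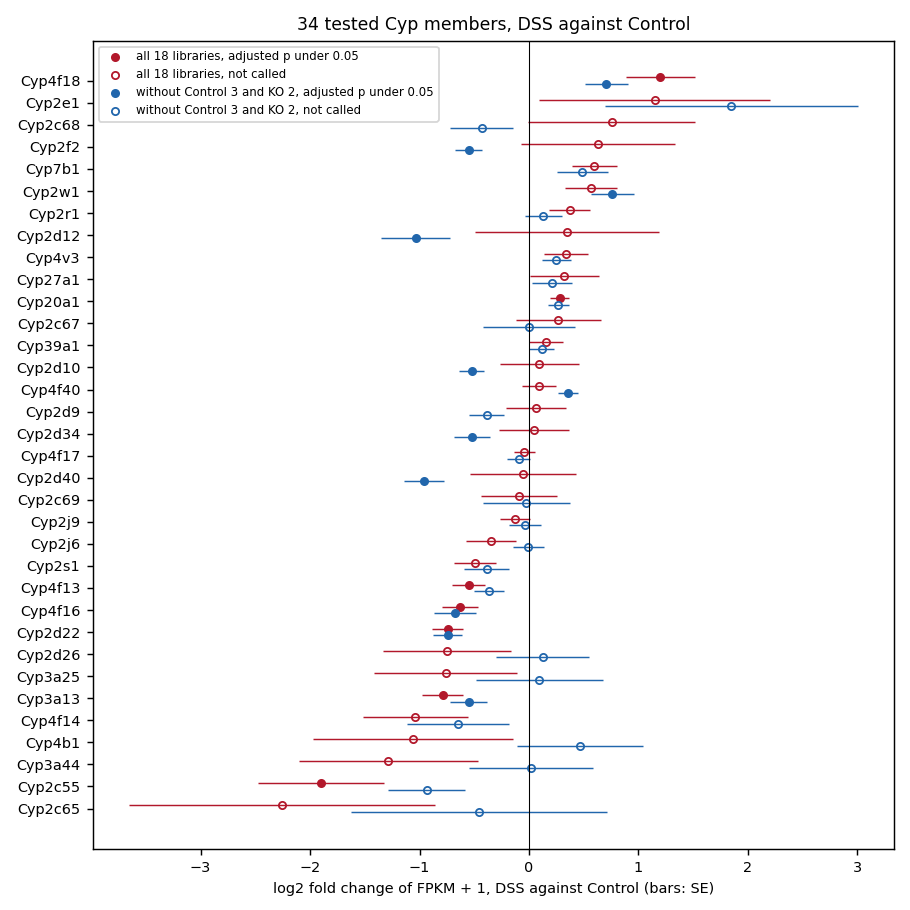
Log2 fold change of FPKM + 1 with its standard error for the 34 tested members in DSS against Control, over all 18 libraries (red) and without Control 3 and KO 2 (blue), filled where the adjusted p was under 0.05. Cyp2c68, Cyp2f2, Cyp2d12, Cyp2d10, Cyp2d9 and Cyp2d34 lie right of 0 in red and left of it in blue, and Cyp2d22 and Cyp4f16 stay in place.

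Control 3 was the extreme library for many members. It was the highest of the 18 libraries for 11 of 34 tested members (32.4%), beside 16.12% of all tested genes, and the lowest for another 11 (32.4%), beside 30.16%. Cyp4b1, a P450 of epithelia such as that of the lung, stood at 1.23, 1.66 and 1.24 FPKM in DSS libraries, at 0.97 to 1.75 FPKM in WT, at 1.07 to 1.73 FPKM in KO, at 3.70, 13.2, 1.22 and 0.93 FPKM in COM and at 0.59, 0.85 and 39.8 FPKM in Control. Cyp2j6, an arachidonic acid epoxygenase of the intestine, stood at 28.8 FPKM in Control 3, 23.6 in COM 1, 22.9 in KO 2 and 19.3 in COM 2, against 12.8 to 16.6 FPKM elsewhere. Cyp3a44, chosen after its values were seen, stood at 14.1 FPKM in Control 3, 4.47 in COM 2 and 3.37 in COM 1, and at 0.04 FPKM or less elsewhere. Cyp2f2, which oxidizes naphthalene in mouse airways, ran the other way, with 0.57 FPKM in Control 3 and 2.51 FPKM in KO 2, against 9.70 to 17.9 FPKM in the other 16 libraries.

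COM 1 and COM 2 shared some of the high members of Control 3, such as Cyp2c55, Cyp2c65, Cyp4b1, Cyp3a44, Cyp2d26 and Cyp2j6, without its low Hox genes. They did not share others, with Cyp4f40 at 37.9 and 37.4 FPKM in COM 1 and COM 2, against 37.8 and 43.8 FPKM in COM 3 and COM 4. Hoxb13 stood at 224 FPKM in COM 1 and 173 FPKM in COM 2, and Cyp2f2 at 13.1 and 15.8 FPKM. Car1, a carbonic anhydrase of colonocytes, chosen after its values were seen, stood at 5102 FPKM in COM 1, 4136 FPKM in COM 2 and 15636 FPKM in Control 3, against 716 to 2055 FPKM in the other 15 libraries. Not all colonocyte markers ran this way, as values also picked after they were seen show. Car4 (485 FPKM in COM 2, 576 in Control 3) and Slc26a3 (188 and 137 FPKM) were lower there than in any other library. Cdhr5 was highest in Control 3, at 658 FPKM. The part of the Hox difference in these values was not tested.

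**Figure D4:**
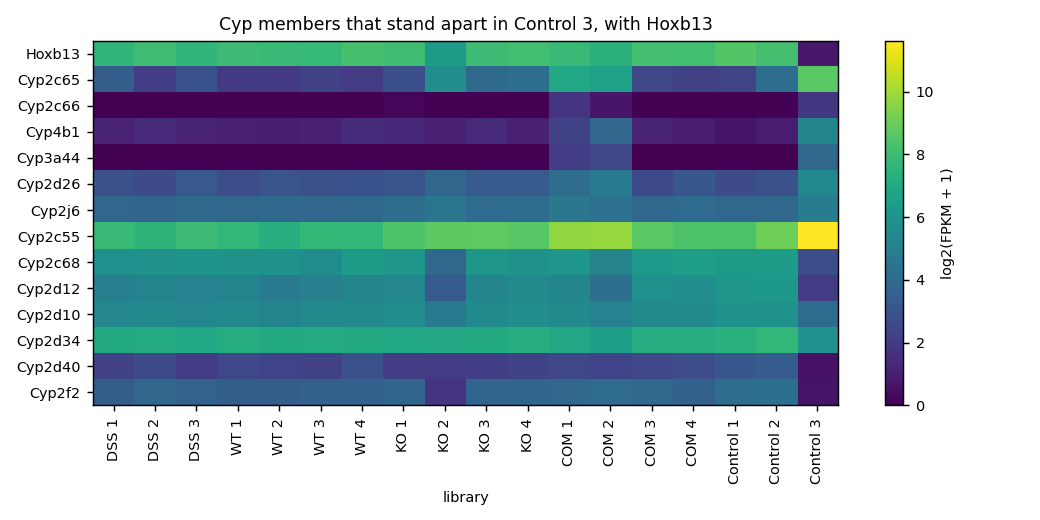
Heat map of log2(FPKM + 1) of Hoxb13 and 13 members in the 18 libraries, one row per gene and one column per library. In Control 3 the first 7 members, from Cyp2c65 to Cyp2c55, are at their highest and the last 6, from Cyp2c68 to Cyp2f2, at their lowest.

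COM 2 held members that the other libraries almost lacked. It was the highest library for 16 of the 70 members and exceeded the next library more than 5 times for 8 of them. Cyp2e1, the ethanol-oxidizing P450 of hepatocytes, stood at 125 FPKM in COM 2, against 0.21 to 13.2 FPKM in the other 17 libraries. The following members were chosen after their values were seen. Cyp3a11, the main Cyp3a of mouse liver, stood at 35.6 FPKM in COM 2 and 2.62 FPKM in DSS 1, and at 0.71 FPKM or less elsewhere. Cyp2c70, which makes muricholic acids in the mouse, stood at 6.14 FPKM in COM 2 and 0.82 FPKM in DSS 1, and at 0.05 FPKM or less elsewhere. Cyp2a5 stood at 6.01 FPKM, Cyp2a12 at 5.11 FPKM, Cyp2j5 at 4.70 FPKM and Cyp8b1, the sterol hydroxylase of cholic acid synthesis, at 2.57 FPKM in COM 2.

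In COM 2 these members stood beside high hepatocyte markers. The 9 hepatocyte markers in the table, of 10 listed, 4 of which (Apoa1, Apoc3, Serpina1a and Ahsg) were at 0 in at least 1 library, summed to 1413 FPKM in COM 2, to 178 FPKM in DSS 1, to 58.5 to 71.8 FPKM in the other COM libraries, to 78.8 and 75.0 FPKM in the other DSS libraries, to 61.5 to 86.7 FPKM in WT, to 30.4 to 65.0 FPKM in KO and to 21.8 to 83.4 FPKM in Control. Apoa1 stood at 165 FPKM in COM 2 and 11.7 FPKM in DSS 1, and at 0.57 FPKM or less elsewhere. The part of hepatocyte RNA in the levels of these members was not tested. Outside COM 2 and DSS 1 the hepatocyte sums were mostly Ttr and Tat, such as 30.8 and 47.4 FPKM of 83.4 FPKM in Control 2. Their order there cannot rank the libraries by hepatocyte RNA. The lowest values of Cyp2e1 were 0.21 FPKM in Control 2, 1.44 FPKM in KO 4 and 2.61 FPKM in COM 4. Those 3 libraries had the lowest adipocyte sums. The highest adipocyte sums were 433 FPKM in COM 2 and 432 FPKM in Control 3, where Cyp2e1 stood at 125 and 9.41 FPKM. The 10 adipocyte markers, 2 of which (Plin1 and Lep) were at 0 in at least 1 library, summed to 79.0 to 159 FPKM in DSS, 119 to 195 FPKM in WT, 58.6 to 231 FPKM in KO, 70.7 to 433 FPKM in COM and 26.4 to 432 FPKM in Control, and their part in the levels of Cyp2e1 was not tested.

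**Figure D5:**
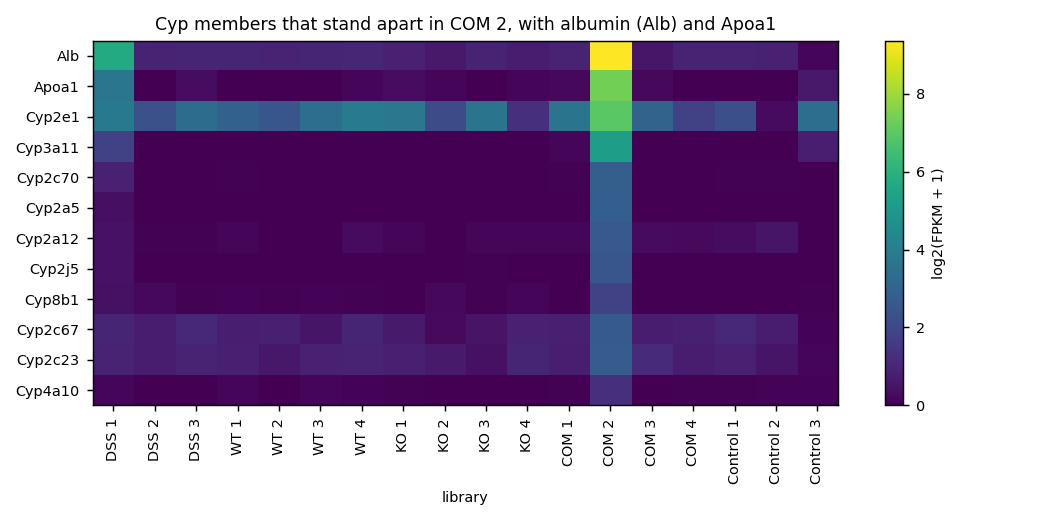
Heat map of log2(FPKM + 1) of the hepatocyte genes Alb and Apoa1 and of 10 members in the 18 libraries, one row per gene and one column per library. All 12 genes are at their highest in COM 2, and Alb, Apoa1, Cyp3a11 and Cyp2c70 are next highest in DSS 1. So are Cyp2a5, Cyp2j5, Cyp8b1 and Cyp4a10, at only 0.29, 0.36, 0.35 and 0.13 FPKM in DSS 1.

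In the 6 comparisons among the DSS-treated groups no member passed the test in limma. Members at an unadjusted p under 0.05 numbered 1 of 34 in WT against DSS, 2 in KO against DSS, 2 in COM against DSS, 4 in KO against WT, 2 in COM against KO and 4 in COM against WT. Over all 13263 genes 4.77, 16.3, 11.0, 20.1, 10.8 and 11.2% were at an unadjusted p under 0.05, above the members' share in each of the 6 but COM against WT, where it was 11.8%. By the adjusted p 0, 0.166, 0.0151, 0.829, 0.0302 and 0.00754% were called in these comparisons. The groups did not overlap for 1, 5, 6, 6, 4 and 3 members in the same order, beside 10.5, 19.3, 15.7, 17.2, 7.34 and 10.4% of all genes. Cyp2d22 had the smallest unadjusted p in COM against DSS, at 0.39 ± 0.13 (adjusted p = 0.318), with every COM library above every DSS library. Cyp2w1 had it in KO against WT, at -0.60 ± 0.21 (adjusted p = 0.139), with every KO library below every WT library. Cyp27a1, a mitochondrial sterol hydroxylase, stood at 0.70 ± 0.27 in COM against KO (adjusted p = 0.368), with 20.85 to 22.5 FPKM in COM and 5.37 to 19.6 FPKM in KO, the lowest value being that of KO 2.

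The remaining abundant members showed no call. Cyp2s1, an extrahepatic epithelial P450, stood at 38.7, 48.5 and 30.2 FPKM in DSS libraries, at 33.2 to 54.2 FPKM in WT, at 40.6 to 53.2 FPKM in KO, at 41.1 to 57.5 FPKM in COM and at 44.1, 57.9 and 63.6 FPKM in Control, a difference of -0.49 ± 0.19 in DSS against Control (limma, adjusted p = 0.0871). Cyp39a1, a hydroxylase of oxysterols, lay between 5.39 and 9.82 FPKM and Cyp4v3, a fatty acid hydroxylase, between 3.75 and 10.4 FPKM, with the lowest value of both in KO 2. Cyp2r1, a vitamin D hydroxylase, lay between 0.34 FPKM in Control 3 and 1.64 FPKM in DSS 1.

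Of the 36 members that were not tested, 26 never reached 1 FPKM and 10 never reached 0.1 FPKM. Of the 10 that reached 1 FPKM in some library, 8 did so in COM 2. Cyp1a1, the classical target of the aryl hydrocarbon receptor, lay between 0.05 and 0.55 FPKM. The steroidogenic Cyp11a1, Cyp11b1, Cyp17a1 and Cyp21a1, the vitamin D enzymes Cyp24a1 and Cyp27b1 and the retinoic acid hydroxylase Cyp26a1 stayed below 1 FPKM in all 18 libraries. Cyp26b1, another retinoic acid hydroxylase, also chosen after its values were seen, reached 2.38 FPKM in DSS 2 and 1.17 FPKM in WT 1. A single member, Cyp2b19, was listed at 0 in every library.

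The partners and neighbours of these enzymes were read from lists of genes, in the same fit. The share of all genes called lower against Control, to set beside the counts of each list, was 5.31% in DSS, 8.35% in WT, 1.46% in KO and 2.34% in COM, and the share called higher was 11.6, 14.7, 3.69 and 5.26% in the same order. The lists together held 78 tested genes, of which 16 were called in DSS, 20 in WT, 6 in KO and 5 in COM. Without Control 3 and KO 2 the calls numbered 9, 15, 5 and 9 in DSS, WT, KO and COM. Of these, 7, 14, 4 and 3 were also called over all 18 libraries. Each call named here that ended is given with its value. In COM that setting called 1 donor or partner lower, and 1 receptor, 1 vitamin D gene and 1 oxysterol or bile acid gene higher. Rxra stands among both the receptors and the vitamin D genes, and Nr5a2 among both the receptors and the steroid genes. Of 9 electron donors and partners, 3 fell and 0 rose in DSS and in WT against Control over all 18 libraries. None passed in KO or COM there. Por, which feeds electrons to the microsomal members, stood at 39.2, 40.3 and 37.3 FPKM in DSS libraries, at 38.8, 39.6, 42.0 and 42.7 FPKM in WT, at 52.2, 53.5, 57.9 and 55.7 FPKM in KO, at 59.6, 67.7, 56.7 and 51.2 FPKM in COM and at 47.55, 52.0 and 97.4 FPKM in Control. As with Cyp2c55 and the colonocyte marker sums, all DSS and WT libraries were below all KO, COM and Control libraries. Por fell by 0.67 ± 0.18 in DSS (limma, adjusted p = 0.0211) and by 0.60 ± 0.17 in WT (adjusted p = 0.0197). Fdx1, the donor of the mitochondrial members, fell by 0.42 ± 0.10 in DSS (adjusted p = 0.0135) and by 0.49 ± 0.10 in WT (adjusted p = 0.00279). Without Control 3 and KO 2 the Fdx1 value in DSS was -0.31 ± 0.10 and did not pass (adjusted p = 0.0577). Cyb5b fell by 0.39 ± 0.10 in DSS (adjusted p = 0.0130), and Fdxr by 0.30 ± 0.09 in WT (adjusted p = 0.0251).

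Of 13 tested receptors, 1 rose and 1 fell in DSS and in WT against Control over all 18 libraries. In KO 1 fell and in COM none passed. Nr5a2, a receptor that drives steroid synthesis in gut epithelium, fell by 0.63 ± 0.17 in DSS, 0.69 ± 0.16 in WT and 0.71 ± 0.16 in KO (limma, adjusted p = 0.0201, 0.00666 and 0.0208). Ahr rose by 0.40 ± 0.13 in DSS (adjusted p = 0.0456), with 7.62, 7.99 and 7.44 FPKM in DSS libraries and 6.28, 6.75 and 4.02 FPKM in Control libraries. Arnt, its partner, rose by 0.18 ± 0.06 in WT (adjusted p = 0.0486). With Control 3 and KO 2 left out, the calls ended for Nr5a2 in DSS (-0.45 ± 0.16, adjusted p = 0.0858) and KO (-0.50 ± 0.16, adjusted p = 0.1), for Ahr in DSS (0.21 ± 0.09, adjusted p = 0.155) and for Arnt in WT (0.14 ± 0.06, adjusted p = 0.129).

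Of 18 tested retinoid genes, 3 rose in DSS, 3 in WT, 1 in KO and 2 in COM against Control over all 18 libraries, and none fell. Without Control 3 and KO 2, 2 rose in DSS, 3 in WT, 1 in KO and 2 in COM. In that setting 1 fell in DSS, 1 in WT, 1 in KO and 2 in COM. Aldh1a3, which makes retinoic acid, rose by 2.43 ± 0.57 in DSS, 2.70 ± 0.53 in WT and 2.03 ± 0.53 in COM (limma, adjusted p = 0.0104, 0.00301 and 0.0305). Dhrs9, a retinol dehydrogenase, rose in all 4 groups, by 2.07 ± 0.40 in DSS, 2.36 ± 0.37 in WT, 1.95 ± 0.37 in KO and 1.52 ± 0.37 in COM. Rdh10, another, rose by 0.65 ± 0.19 in DSS (adjusted p = 0.0275) and by 0.81 ± 0.18 in WT (adjusted p = 0.00517). When Control 3 and KO 2 were out of the fit, Rdh10 in DSS (0.51 ± 0.20, adjusted p = 0.111) and Aldh1a3 in COM (1.74 ± 0.59, adjusted p = 0.0846) did not pass. Aldh1a3 stood at 12.1, 45.5 and 10.3 FPKM in DSS libraries, at 32.7, 27.5, 16.7 and 15.4 FPKM in WT, at 17.8, 5.89, 7.30 and 8.97 FPKM in KO, at 6.64, 9.08, 28.9 and 17.6 FPKM in COM and at 4.10, 2.63 and 1.39 FPKM in Control. The highest DSS and COM values were those of DSS 2 and COM 3, where the squamous markers were highest. The highest WT and KO values were those of WT 1 and KO 1. There the squamous markers summed to 33.1 and 36.0 FPKM, the lowest sums of their groups. By mean log2 level these libraries were not the lowest. WT 1 stood at 0.673 against 0.665 in WT 3, and KO 1 at 0.762 against 0.677 in KO 2 and 0.608 in KO 4. These 16 markers, 11 of which were at 0 in at least 1 library, summed to 32.9, 431 and 42.1 FPKM in DSS, to 33.1 to 222 FPKM in WT, to 36.0 to 96.3 FPKM in KO, to 31.6, 37.3, 402 and 28.5 FPKM in COM and to 10.7, 29.1 and 113 FPKM in Control. Without the squamous libraries DSS 2, COM 3, WT 2, WT 4 and KO 3, Aldh1a3 stood at 1.78 ± 0.49 in DSS, 2.79 ± 0.49 in WT and 1.67 ± 0.44 in COM (adjusted p = 0.0754, 0.0181 and 0.109), and the part of squamous tissue in its level was not tested. That setting kept 2, 8, 2 and 0 of the calls of these lists in DSS, WT, KO and COM against Control.

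Of 6 tested vitamin D genes, 2 fell in DSS, 3 in WT and 1 in KO against Control over all 18 libraries, and none rose. The vitamin D receptor Vdr fell by 0.45 ± 0.15 in DSS (limma, adjusted p = 0.0468) and by 0.61 ± 0.14 in WT (adjusted p = 0.00637). The calcium pump Atp2b1 fell by 0.64 ± 0.13 in DSS, 0.69 ± 0.12 in WT and 0.48 ± 0.12 in KO (adjusted p = 0.00499, 0.00148 and 0.0316). The metal exporter Slc30a10 stood at 1.89, 0.91, 2.27 and 1.51 FPKM in WT libraries and at 5.06, 7.65 and 30.3 FPKM in Control libraries. It fell by 2.18 ± 0.57 in WT against Control (adjusted p = 0.0142), and by 1.48 ± 0.38 without Control 3 and KO 2 (adjusted p = 0.0172). In that setting Vdr in DSS (-0.36 ± 0.14, adjusted p = 0.107) and Atp2b1 in KO (-0.27 ± 0.09, adjusted p = 0.103) did not pass.

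Of 11 tested steroid genes, 2 fell in DSS, 4 in WT, 2 in KO and 1 in COM, and none rose. The falls of Nr5a2 in DSS, WT and KO, given above among the receptors, are counted here as well. Hsd17b2, which inactivates sex steroids, fell in all 4 groups, by 0.65 ± 0.12 in DSS, 0.64 ± 0.11 in WT, 0.63 ± 0.11 in KO and 0.68 ± 0.11 in COM (limma, adjusted p = 0.00304, 0.00144, 0.00547 and 0.00407). Of 14 eicosanoid genes, 3 rose and 1 fell in DSS, 4 rose and 2 fell in WT, and 1 rose and 1 fell in KO and in COM. Hpgd, which inactivates prostaglandins, fell in all 4, by 0.84 ± 0.17 in DSS, 0.91 ± 0.16 in WT, 0.87 ± 0.16 in KO and 0.55 ± 0.16 in COM (adjusted p = 0.00497, 0.00153, 0.00673 and 0.0459). The epoxide hydrolase Ephx2, which acts on products of Cyp2c and Cyp2j enzymes, fell by 0.81 ± 0.24 in WT (adjusted p = 0.0231), where Ptges rose by 0.75 ± 0.20 (adjusted p = 0.0155). Of 9 tested oxysterol and bile acid genes only Gpr183 passed over all 18 libraries. This receptor for oxysterols that Cyp7b1 helps to make rose by 0.69 ± 0.19 in DSS (limma, adjusted p = 0.0218). The fit without Control 3 and KO 2 ended the calls of Hpgd in COM (-0.34 ± 0.12, adjusted p = 0.102), of Ephx2 (-0.47 ± 0.20, adjusted p = 0.133) and Ptges (0.45 ± 0.15, adjusted p = 0.0584) in WT, and of Gpr183 in DSS (0.54 ± 0.17, adjusted p = 0.054).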

How the data were processed

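Bulk colon RNA was measured in 18 libraries of 5 groups. The authors deposited FPKM values, rounded to 2 decimals, of 18349 genes by NCBI gene ID, of which 18230 matched a symbol. Per the submitters' processing notes the build was mm10, and no source used here gives the aligner, the counting, its strand setting or the annotation. Library totals ran from 517933 to 558589.9 FPKM. Read depth is unknown, so that no counting interval is given.

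The 13263 genes that reached 1 FPKM in 3 or more libraries were fitted as log2(FPKM + 1) with limma 3.58.1 in R 4.3.3, with a mean-variance trend, all 18 libraries in 1 model of 5 groups and 10 two-sided contrasts. Calls were made at a Benjamini-Hochberg adjusted p under 0.05 over all genes tested. Errors of fold changes are standard errors. A fold change on this scale understates the change of low genes. The fit was tested on simulated data.

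Members, lists and tests were chosen with earlier results of these data known. Named are members called in any comparison, the 10 highest means, the highest member of each subfamily with a tested member, and up to 4 genes of each other list. Alternatives were another pseudocount or filter, quantile normalization, TPM, a fit of the compared pair alone, a replicate block, a fold limit, and leaving out single or marker-rich libraries. The setting without COM 2 and DSS 1, and the values of the other lists without the low-Hox or squamous libraries, were added after seeing the data. Between any 2 libraries at most 0.381% of all genes had identical values of 1 FPKM or more. Coding identity between members was computed from GENCODE M21 transcripts with Biopython 1.88.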

Additional observations from a re-analysis of the deposited data

Results flagged for a closer look

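Values far from the other 3 of their group were looked for in 78 groups of 4 libraries, those of the named members, by the gap to the nearest other library over the range of the group (limit 0.829). About 1 group in 20 passes by chance, and 9 passed. In COM 2, Cyp2e1 stood at 125.03 FPKM, against 2.61 to 11.27 FPKM in the other COM libraries, and Cyp2d10 at 34.73 FPKM, against 44.86 to 46.56 FPKM. In KO 2, the library with the lowest Hox genes of its group, Cyp2f2 stood at 2.51 FPKM, against 12.33 to 12.99 FPKM, and Cyp2j6 at 22.88 FPKM, against 15.79 to 16.62 FPKM. In WT, Cyp2c65 stood at 3.93 FPKM in WT 3, against 2.9 to 3.0 FPKM, Cyp2d10 at 36.52 FPKM in WT 2, against 44.14 to 44.9 FPKM, and Cyp4b1 at 1.75 FPKM in WT 4, against 0.97 to 1.1 FPKM. In COM, Cyp27a1 stood at 22.46 FPKM in COM 3, against 20.85 to 21.12 FPKM, and Cyp4f40 at 43.8 FPKM in COM 4, against 37.4 to 37.92 FPKM. The groups of 3 libraries, DSS and Control, were too small for this look.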

How the results depend on the processing

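Over all 18 libraries 7, 10, 1 and 2 members were called in DSS, WT, KO and COM against Control, and 0 in the 6 comparisons among the DSS-treated groups. Fitting the 2 groups compared alone gave 0, 3, 0 and 0 against Control, and 3 in KO against WT (Cyp2c55, Cyp2c65 and Cyp4f40). Of all 13263 genes tested, 0, 1016, 2 and 15 were called in these fits against Control, and 467 in KO against WT. With all 18 libraries fitted together, the same counts were 2243, 3058, 682, 1008 and 110. Leaving out Control 3 and KO 2 gave 11, 12, 2 and 7, and 1 in COM against WT, beside 1824, 2222, 627, 1077 and 65 of all genes. Leaving out the acinar libraries, which left a single DSS library, gave 0 in KO, beside 268 of all genes. Without the squamous libraries the counts were 1, 2, 0 and 0, beside 309, 751, 159 and 63 of all genes. Leaving out COM 2 with DSS 1 gave 4 in DSS and 0 in COM, beside 1380 and 499 of all genes. A fold limit of 1 on the log2 scale left 2, 1, 0 and 0. A filter of 5 FPKM left 1 in COM, beside 789 of the genes that this filter kept. With 1 library left out the counts ran from 2 to 10 in DSS, 7 to 12 in WT, 0 to 4 in KO and 0 to 6 in COM, and were 0 throughout in the other 6. Of all genes, 1266 to 3662 were called in these fits in DSS, 1873 to 4624 in WT, 254 to 1591 in KO and 402 to 2302 in COM. Another pseudocount, no filter, quantile normalization and TPM moved no count of members by over 1.5 times. Apart from what fewer libraries do to a test, the cause was not tested. No called value changed sign.

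With the replicate number as a block 5, 9, 1 and 2 members were called against Control and 0 in the other 6 comparisons. Of all genes, 1783, 2443, 361 and 557 were called against Control with this block. The numbers did not pair the libraries: deviations of same-numbered libraries correlated at -0.473 to 0.392 over 33 pairs, and 21 of 66 matches were best with the own number.

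In DSS against Control, Cyp3a13 and Cyp2d22 were called with any 1 library left out, and Cyp2c55, Cyp4f13, Cyp4f16, Cyp4f18 and Cyp20a1 each lost the call without at least 3 single libraries. In KO, Cyp3a13 lost it without Control 2, Control 3 or KO 1, and in COM both calls were lost without Control 2, COM 2 or COM 3. Values of low members are limited by the 2 decimals of the file.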
